A study of Mus musculus with 5 samples.

Results

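Across the genome of primary mouse mammary epithelial cells, 402 RNA polymerase II (RNAPII) peaks carried a peak of NELF-A and a peak of R-loop signal while no peak of NELF-B was listed on them. They were selected on the deposited peak lists. An RNAPII peak under 5000 bp wide was taken when it shared at least 1 bp with a NELF-A peak and with a DRIP peak, and with no NELF-B peak. The RNAPII list held 7718 peaks, of which 7309 were under 5000 bp, so the 402 made up 5.5% of the peaks that could have met the rule. Among the same 7309 peaks, 72.2% overlapped NELF-A, 37.2% overlapped NELF-B and 19.2% overlapped DRIP. The 402 lie on 20 chromosomes and cover 698250 bp.

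NELF, the negative elongation factor, is a complex of several subunits that holds RNAPII in a paused state shortly after transcription begins. NELF-A contacts the polymerase, and NELF-B, also named COBRA1, is a core subunit that was also identified as a partner of BRCA1, a tumour suppressor of the mammary gland. In an R-loop, RNA pairs with the DNA strand it was copied from and leaves the opposite strand unpaired, a structure often found near the starts of active genes. DRIP-seq maps R-loops by pulling down DNA fragments with an antibody against RNA-DNA hybrids.

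The cells came from mammary glands of virgin mice of mixed strain, 6 to 8 weeks old, with no treatment named. RNAPII, NELF-A and NELF-B were profiled by ChIP-seq and R-loops by DRIP-seq, each giving 1 peak list: 10782 NELF-A peaks, 3925 NELF-B peaks, 10031 DRIP peaks and the RNAPII peaks given above. The RNAPII and DRIP titles name 2 libraries each, and the labels do not say how many animals were pooled. Both NELF antibodies were made in house, and their libraries took 18 PCR cycles from 0.2 ng of DNA, against 15 cycles from 1 ng for RNAPII. A further DRIP sample, treated with RNase H to degrade hybrid RNA, was not used here, and loss of DRIP signal after RNase H was not tested.

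Several properties of the lists bear on all values below. Each target has 1 list, so replicate spread is unknown and no p-value is given. Intervals are 95% intervals over peaks, cover counting error only, and treat peaks as separate although some share a NELF-A or DRIP peak. The absence of a listed NELF-B peak means that none passed the authors' threshold, not that the subunit was absent. The NELF-B list is much shorter than the NELF-A list, and the depth of both is unknown. The targets were measured in separate bulk preparations, so overlap does not place them on 1 molecule or in 1 cell, and a mark in fewer cells and a weaker mark per cell cannot be told apart. The labelled cell type was not checked against marker genes, since the lists name no genes and no mm9 gene annotation was used here.

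The 402 peaks were intermediate in RNAPII width and score. Their median width was 1500 bp, with quartiles at 1000 and 2250 bp and a range of 500 to 4500 bp. In the authors' score, a whole number per peak with no stated unit that rises with width, the median was 434.5, the range 104 to 2231, and the lowest score in the whole RNAPII list 104. Corrected for width, the median was 70.0 per 250 bp in the 402 (interval 68.4 to 72.3). RNAPII peaks with NELF-A, NELF-B and DRIP, 669 in number, had a median of 83.7 (82.0 to 85.4), and the 2170 peaks with NELF-A alone had 59.0 (58.6 to 59.5). Over all widths, the score per base of the 402 lay between those of the 2 other classes, which also differed in width, with medians of 1500 bp in the 402, 1750 bp with all 3 targets and 750 bp with NELF-A alone. Among RNAPII peaks of 1750 to 4750 bp, the medians per 250 bp were 77.3 in the 402, 91.1 with all 3 targets and 74.9 with NELF-A alone, and among those of 1000 to 1500 bp they were 68.1, 75.6 and 62.6. The order did not hold for peaks of 500 to 750 bp, where the medians were 56.0 in the 402, 58.5 with all 3 targets and 56.3 with NELF-A alone.

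NELF-A scored lower on the 402 than on the peaks that also held NELF-B. On a scale from 0 to 100 by rank of score within the NELF-A list, the highest-score NELF-A peak on each of the 402 had a median of 63.7 (58.7 to 66.9). The median was 90.9 (89.5 to 91.6) on the peaks with all 3 targets and 56.9 (55.0 to 58.7) on the NELF-A-only peaks. In authors' score these are medians of 32, 64 and 28, and on the 402 the score ran from 9, the lowest in the list, to 163. By percentile, the order was the same within each class of RNAPII width. For peaks of 1750 to 4750 bp the median percentiles were 68.2, 93.0 and 65.4, and for those of 500 to 750 bp they were 55.0, 77.2 and 51.3. The score also rises with NELF-A width. Per 250 bp of NELF-A peak, the medians were 7 (6.86 to 7.25) on the 402 and 11 (10.7 to 11.3) with all 3 targets. NELF-A-only peaks had 6.83 (6.75 to 7), an interval that overlaps that of the 402. Since the presence of all listed marks defines the classes, these levels describe the peaks and test nothing.

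**Figure D1:**
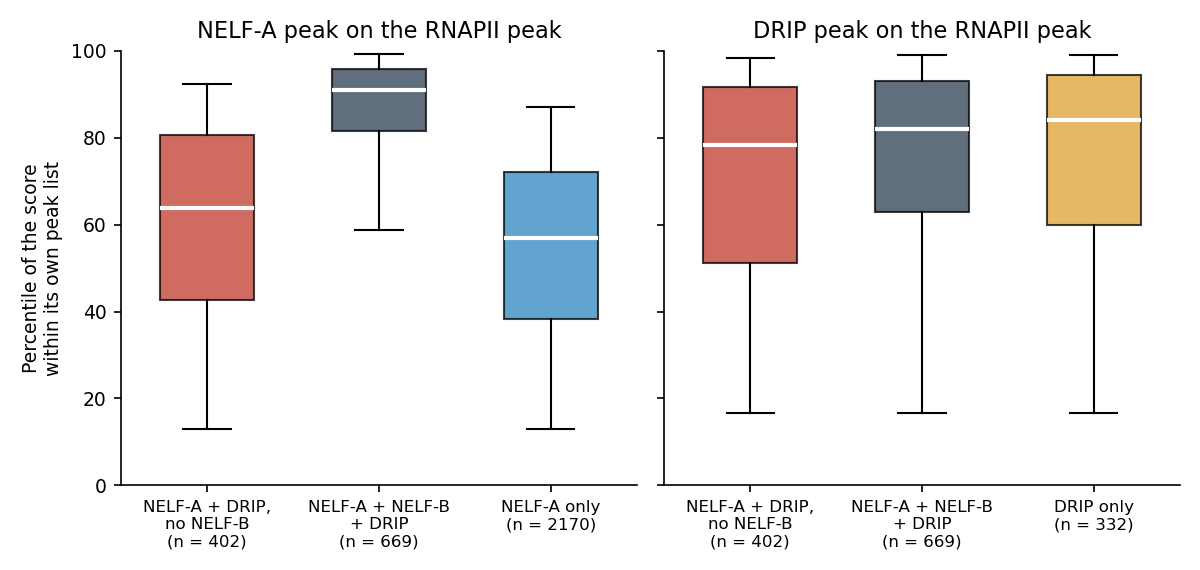
Score percentile within the NELF-A list (left) and the DRIP list (right) of the peak on each RNAPII peak under 5 kb, by class; boxes span the quartiles, white lines are medians and whiskers reach the 5th and 95th percentiles. The 402 peaks sit near the middle of the NELF-A list with a median of 63.7, below the 90.9 of peaks that also carry NELF-B, while their DRIP median is 78.3, against 82.0 on those peaks, over all RNAPII widths.

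DRIP percentiles of the 402 and of the peaks with all 3 targets were close over all widths, but not on narrow RNAPII peaks. The highest-score DRIP peak on each of the 402 had a median percentile of 78.3 (73.5 to 81.7), against 82.0 (80.3 to 84.4) on the peaks with all 3 targets and 84.1 (78.8 to 88.2) on the 332 peaks with DRIP alone. For RNAPII peaks of 500 to 750 bp the median was 60.3 (51.2 to 81.1) on the 402, from 63 peaks, against 86.2 (78.6 to 93.4) with all 3 targets, from 42. It was 73.5 and 79.0 for peaks of 1000 to 1500 bp, and 84.1 and 84.0 for wider ones. In score the DRIP peaks of the 402 had a median of 111.5 and ran from 38, the lowest in the list, to 4863. These percentiles and scores rise with DRIP width. Per 250 bp of DRIP peak, over all RNAPII widths, the median was 21.3 (21 to 21.7) on the 402. It was 22.4 (22 to 23) with all 3 targets, so DRIP per base was slightly lower on the 402. By quartiles of the DRIP list from lowest to highest, 55, 40, 91 and 216 of the 402 had their peak there, so 53.7% were in the highest quartile. By quartiles of the NELF-A list the counts were 50, 81, 135 and 136, with 33.8% in the highest. Of the peaks with all 3 targets, 83.6% had NELF-A in the highest quartile.

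A lack of listed NELF-B was less frequent among NELF-A-bearing RNAPII peaks that also had DRIP. Of the 1071 RNAPII peaks with NELF-A and DRIP, 37.5% had no NELF-B peak (34.7 to 40.5), against 51.6% (50.1 to 53.1) of the 4204 with NELF-A and no DRIP. The shares were then taken within quartiles of the NELF-A list, which group peaks by NELF-A level only coarsely. Over all quartiles, NELF-A percentiles were higher with DRIP. The medians were 90.9 with all 3 targets and 78.8 with NELF-A and NELF-B but no DRIP. On peaks without NELF-B they were 63.7 with DRIP and 56.9 without. In the lowest quartile of the NELF-A list, 96.2% (50 of 52) of peaks with DRIP lacked NELF-B, against 95.4% (310 of 325) of peaks without DRIP. The second quartile gave 81.0% (81 of 100) and 79.8% (561 of 703), and the third 60.3% (135 of 224) and 56.9% (869 of 1526). In these 3 quartiles the difference lay between 0.769 and 3.32 percentage points, each with an interval that includes 0. In the highest quartile 19.6% (136 of 695) of peaks with DRIP lacked NELF-B, against 26.1% (430 of 1650) of those without DRIP, a difference of -6.49 points (-10 to -2.76). Within NELF-A quartiles, then, the share without NELF-B was lower with DRIP only in the highest. Neither NELF-A level nor RNAPII width was matched inside a quartile. Whether they account for the difference of -6.49 points was not tested. All 3 marks enter the rule, so these shares describe how the calls combine.

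**Figure D2:**
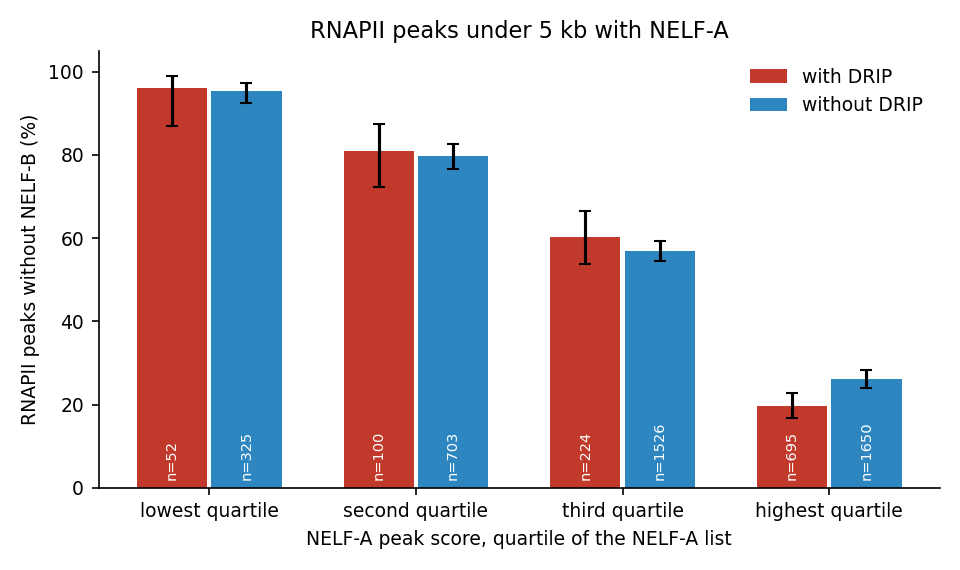
Share of RNAPII peaks with NELF-A that had no listed NELF-B peak (%), by quartile of the NELF-A list from weakest to strongest, with DRIP and without DRIP; error bars are Wilson intervals. The share falls from 96.2% to 19.6% across the quartiles where DRIP is present, and the difference between the 2 groups has an interval without 0 only in the highest quartile.

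RNAPII width and DRIP level moved with the same share. Among peaks with NELF-A and DRIP, 60% of those of 500 to 750 bp lacked NELF-B, 40.5% of those of 1000 to 1500 bp, and 31.6% of the wider ones. Without DRIP the shares were 64.7%, 44.5% and 36.8% in the same order. By quartile of the DRIP list from lowest to highest, 47.0% (55 of 117), 41.7% (40 of 96), 39.9% (91 of 228) and 34.3% (216 of 630) lacked NELF-B. RNAPII peaks therefore lacked NELF-B most often where NELF-A was weak and RNAPII narrow. Whether either sets the absence of NELF-B calls was not tested.

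Across the 402 peaks, rank correlations between the scores of different marks were low. Spearman's rho between NELF-A and DRIP score was -0.017 over the 402, and it was 0.021 for scores per base. RNAPII and NELF-A scores gave a rho of 0.17, and RNAPII and DRIP scores 0.24. Per base the order of these was the other way, with 0.28 for RNAPII and NELF-A and 0.16 for RNAPII and DRIP. These values are descriptions over peaks that share 1 library set. Scores also followed width, with a rho of 0.96 for RNAPII, 0.85 for NELF-A and 0.99 for DRIP, so a high score mostly meant a broad peak.

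**Figure D3:**
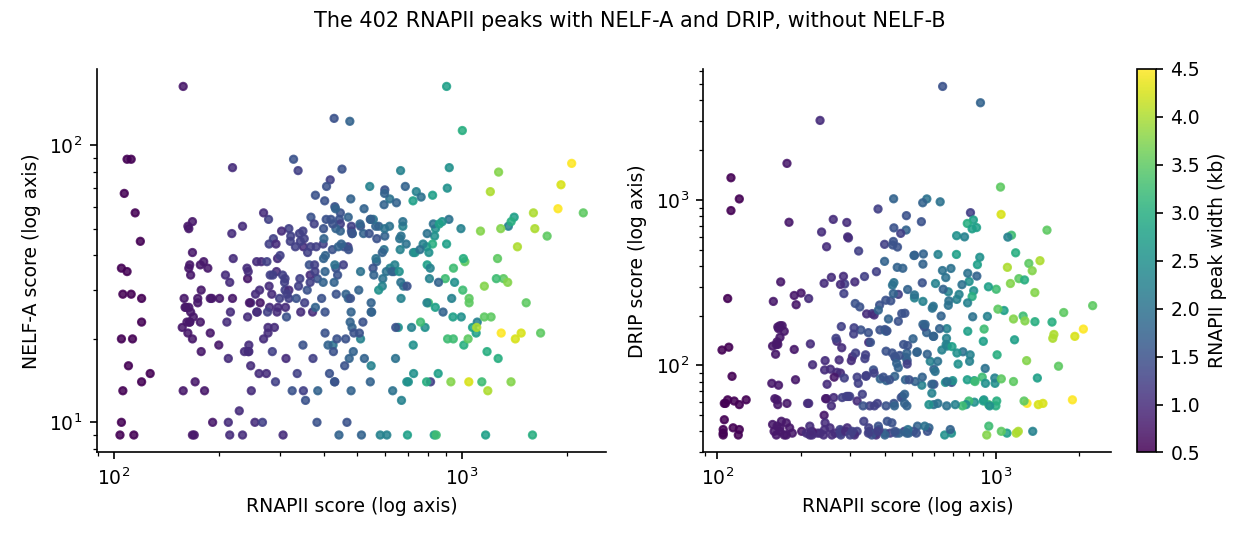
Authors' scores of the 402 peaks on log axes, each point 1 RNAPII peak coloured by its width (kb): NELF-A score (left) and DRIP score (right) against RNAPII score. NELF-A runs from 9 to 163 and DRIP from 38 to 4863, with wide scatter around a rho of 0.17 and 0.24, and wide RNAPII peaks lie at the right.

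Most of the 402 were simple sites. One NELF-A peak lay on 367 of them, 2 on 34 and 3 on 1; one DRIP peak lay on 302, 2 on 99 and 3 on 1. They held 434 distinct NELF-A peaks and 500 distinct DRIP peaks. Among these, 4 NELF-A peaks lay on more than 1 of the 402, on 8 in all, and 3 DRIP peaks did, on 6. None of the 402 fell in any of the 16 regions where at least 3 of the lists hold a peak of extra-high signal.

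NELF-A and DRIP peaks overlapped each other on 341 of the 402 (84.8%, 81.0 to 88.0). Much of this follows from the rule, which places both on 1 RNAPII peak with a median width of 1500 bp. With NELF and DRIP peaks set to 500 bp around their centres, the share was 46.1% (140 of 304). Over all 402, the bases shared by RNAPII, NELF-A and DRIP had a median of 500 bp. On the peaks with all 3 targets the share was 89.7% (600 of 669, 87.2 to 91.8), a difference of -4.86 percentage points (-9.22 to -0.796). The difference held in sign in each RNAPII width class, with 96.8% and 97.6% for narrow peaks, 86.4% and 92.9% for middle ones, and 79.5% and 87.0% for wide ones. By NELF-A quartile it did not: the shares were 70.0% (35 of 50) and 2 of 2 peaks in the lowest quartile, 77.8% and 73.7% in the second quartile, 83.7% and 87.6% in the third, and 95.6% and 90.5% in the highest, each difference with an interval that includes 0. It also turned to 5.01 points with the peaks set to 500 bp, and to 0.883 points with the upper 50% of NELF-A and DRIP peaks by score. Within the 402, the overlap was 95.6% in the highest NELF-A quartile and 70.0% in the lowest, a difference of 25.6 points (13.6 to 39.5).

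NELF-A lay close to the middle of the RNAPII peak and DRIP lay outward. The NELF-A centre was a median of 250 bp from the RNAPII centre, the DRIP centre 750 bp. DRIP was the farther one on 306 of the 402 (76.1%), against 75.2% of the peaks with all 3 targets. NELF-A covered the RNAPII centre on 76.1% of the 402 and on 85.1% of the peaks with all 3 targets, a difference of -8.93 points (-14.0 to -4.07). DRIP covered it on 46.3% and 49.2%, a difference of -2.91 points (-9.03 to 3.26). The centre of the DRIP peak lay inside the RNAPII peak on 45.5% of the 402 (183 of 402), against 57.7% (386 of 669), a difference of -12.2 points (-18.2 to -6.00). NELF-A centres were inside on 93.8% and 96.7%.

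Cover was also taken at each distance from the RNAPII centre. On the 402, NELF-A cover peaked at the centre at 76.1% and stood at 48.3% and 47.3% at 500 bp on the lower and the higher coordinate side. DRIP cover was 46.3% at the centre and higher beside it, at 54.0% and 53.5% at 500 bp on the 2 sides. The peaks with all 3 targets had the same central dip in DRIP, with 49.2% at the centre and 57.5% and 57.8% at 500 bp. On 48 of the 402 (11.9%), DRIP lay on both sides of the centre without covering it, and on 168 (41.8%) it lay on 1 side. Strand was not known for any peak, so the sides are by coordinate and not by direction of transcription.

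**Figure D4:**
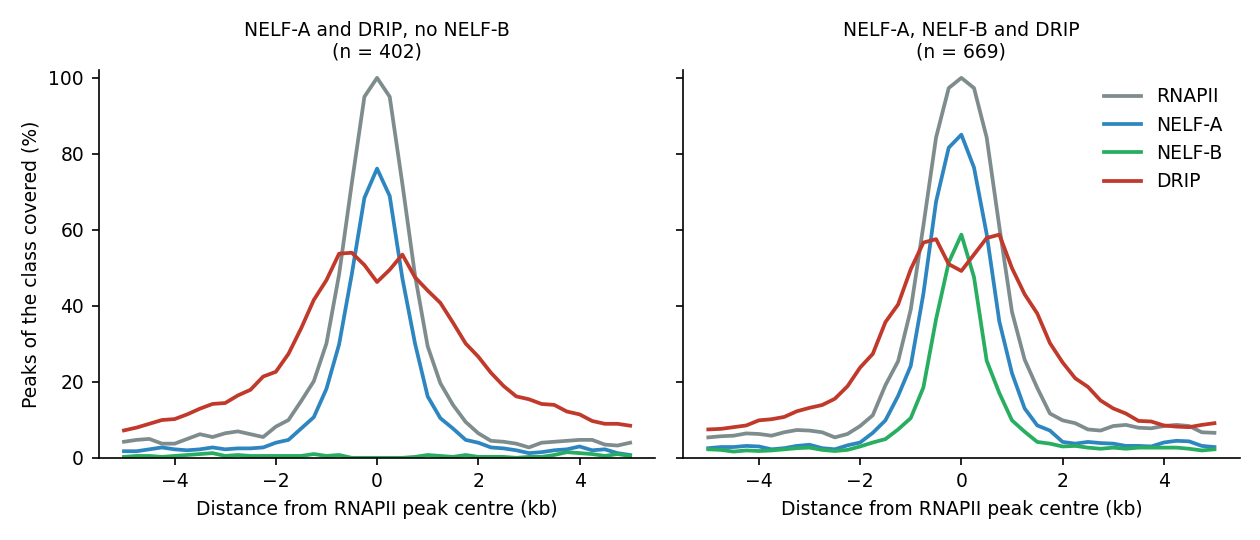
Share of RNAPII peaks (%) covered by an RNAPII, NELF-A, NELF-B or DRIP peak at each distance (kb) from the RNAPII centre, for the 402 peaks and for the 669 with all 3 targets. Each line is 1 target. NELF-A is highest at the centre, at 76.1% on the 402, and DRIP dips there to 46.3% between higher shoulders of 54.0% and 53.5%.

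NELF-A and DRIP fell on the same side of the RNAPII centre about as often as on opposite sides. Of the 322 peaks where neither was centred, 152 (47.2%, 41.8 to 52.7) had both on the same side. The share was 50.1% (264 of 527) on the peaks with all 3 targets, a difference of -2.89 points (-9.75 to 4.03). For RNAPII peaks of 1750 to 4750 bp, where sides are easiest to tell apart, it was 50.6% (83 of 164) and 51.9%. The distance between NELF-A and DRIP centres had a median of 750 bp on the 402, with quartiles at 375 and 1375 bp, and also 750 bp on the peaks with all 3 targets. It widened with the RNAPII peak, with medians of 500, 625 and 1000 bp for the narrow, middle and wide classes of the 402.

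DRIP often ran past an end of the RNAPII peak whereas NELF-A mostly stayed within it. Taking all DRIP peaks on each RNAPII peak, DRIP crossed 1 end on 210 of the 402 (52.2%). On 37 (9.20%), both ends were crossed, by separate DRIP peaks. DRIP lay inside the RNAPII peak on 94 (23.4%), and the RNAPII peak lay inside a single DRIP peak on 61 (15.2%). Crossing of 1 end was 7.10 points (0.918 to 13.2) more frequent than on the peaks with all 3 targets, where it was 45.1%. Those RNAPII peaks were wider, and whether width accounts for the difference in end crossing was not tested. NELF-A lay inside the RNAPII peak on 217 (54.0%), contained it on 108 (26.9%) and crossed an end on 77 (19.2%). NELF-A covered a median of 71.4% of each RNAPII peak and DRIP 56.3%.

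On 61 of the 402, NELF-A and DRIP did not overlap. Their RNAPII peaks were wider, with a median of 1750 bp, and the 2 centres were a median of 1125 bp apart. The farthest pair lay on chr7:16702251-16705750, where a NELF-A peak of score 20 sat at the upper end (chr7:16705001-16705750) and a DRIP peak of score 1198 at the lower end (chr7:16696751-16703000), their centres 5500 bp apart. A long RNAPII peak can thus meet the rule through separate sites at its 2 ends.

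Another RNAPII peak stood near many of the 402. One lay within 10 kb of 163 (40.5%, 35.9 to 45.4), against 39.5% (264 of 669) of the peaks with all 3 targets, a difference of 1.09 points (-4.92 to 7.16). NELF-A-only peaks had one less often, at 23.4% (507 of 2170), 17.2 points below the 402 (12.2 to 22.3). DRIP-only peaks had one far more often, at 90.4% (300 of 332), a difference of -49.8 points (-55.2 to -43.7). The excess over NELF-A-only peaks depended on RNAPII width: it was 25.1 points (13.3 to 37.6) for narrow peaks, 8.71 (1.06 to 17.0) for middle ones and 7.95 (-1.50 to 17.3) for wide ones. The median distance to the next RNAPII peak was 20000 bp for the 402, against 27250 bp with all 3 targets, 42750 bp with NELF-A alone and 500 bp with DRIP alone. Touching RNAPII peaks, which have no gap between them, included 27 of the 402 (6.72%).

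NELF-B was mostly far from the 402. The median distance to the nearest NELF-B peak was 88125 bp, against 83625 bp for NELF-A-only and 14250 bp for DRIP-only peaks. NELF-B lay within 10 kb of 52 (12.9%, 10 to 16.6), against 10.8% of NELF-A-only peaks, a difference of 2.11 points (-1.13 to 5.95), and 43.7% of DRIP-only peaks, a difference of -30.7 points (-36.9 to -24.4). Most of these had an RNAPII neighbour as well: NELF-B lay within 10 kb of 27.6% (45 of 163) of those with a neighbour and 2.93% (7 of 239) of those without. In NELF-A-only peaks the same shares were 36.3% and 3.07%. With a neighbour the 402 thus had NELF-B within 10 kb less often, a difference of -8.68 points (-16.3 to -0.311). Without one the difference was -0.138 points (-1.91 to 2.94).

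**Figure D5:**
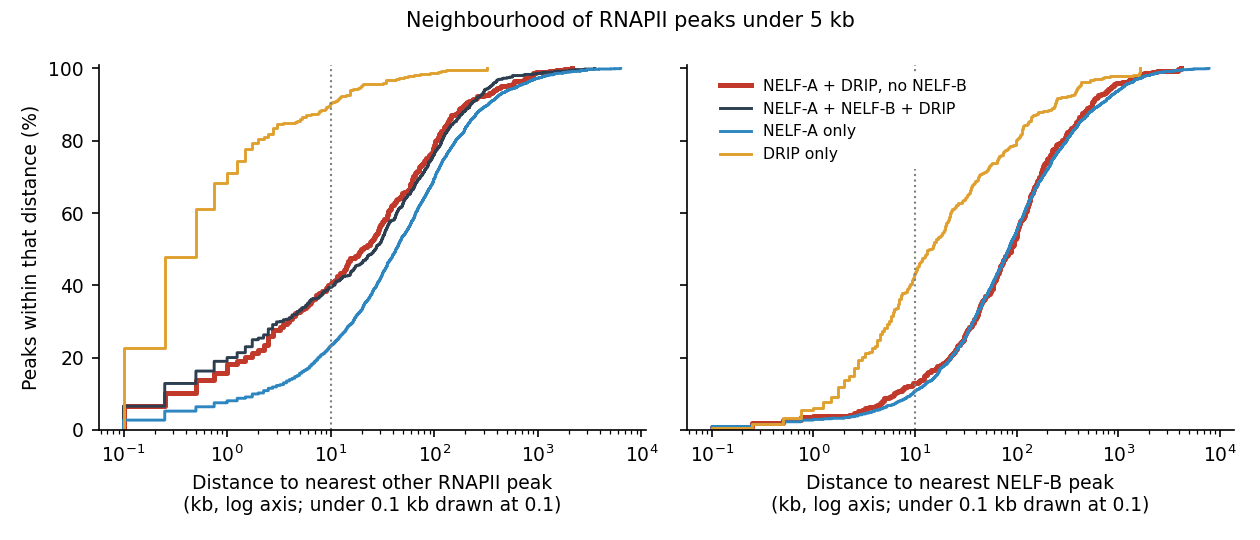
Cumulative share of RNAPII peaks (%) whose nearest other RNAPII peak (left) or nearest NELF-B peak (right) lies within a given distance (kb, log axis), by class; the dotted line marks 10 kb. The 402 peaks follow those with all 3 targets on the left, at 40.5% and 39.5% by 10 kb, and the NELF-A-only peaks on the right, at 12.9% and 10.8%. The right side does not separate peaks with and without an RNAPII neighbour.

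RNAPII neighbours of the 402 carried DRIP more often than those of NELF-A-only peaks. For the 163 with another RNAPII peak within 10 kb, the nearest one overlapped DRIP on 72 (44.2%), NELF-A on 90 (55.2%) and NELF-B on 31 (19.0%). For NELF-A-only peaks the same shares were 17.0%, 72.2% and 30.8%, so the neighbours of the 402 had DRIP 27.2 points more often (19.0 to 35.5) and NELF-B 11.8 points less often (interval of the difference -18.5 to -4.01). For the peaks with all 3 targets, 45.5% of neighbours had DRIP and 22.0% had NELF-B. Their neighbours had NELF-A in 38.6%, so it was 16.6 points more frequent next to the 402 (6.85 to 25.9). Part of the DRIP difference follows from the rule, since a DRIP peak can reach both RNAPII peaks: on 27 of the 163 the neighbour carried the same DRIP peak. Counting only DRIP peaks that were not on the RNAPII peak itself, the shares were 30.1% (49 of 163) for the 402 and 17.0% (86 of 507) for NELF-A-only peaks, a difference of 13.1 points (5.70 to 21.1). The neighbour was itself one of the 402 in 24 cases, and 5 kb or wider in 6. NELF-A leaned away from the neighbour, with its centre on the neighbour's side in 36.2% (50 of 138, 28.7 to 44.5). The lean was stronger on the peaks with all 3 targets, at 23.5% (56 of 238), a difference of 12.7 points (3.20 to 22.4). The DRIP centre lay on the neighbour's side in 51.0% (80 of 157) of the 402 and 53.6% of the peaks with all 3 targets, a difference of -2.62 points (-12.5 to 7.25).

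The 239 peaks with no RNAPII neighbour within 10 kb had NELF-B within 10 kb less often than the 163 with one, at 2.93% against 27.6%. Of the other properties compared here, DRIP differed most. The median RNAPII width was 1500 bp without a neighbour and 1750 bp with one, and the NELF-A percentile 63.7 and 60.4. NELF-A overlapped DRIP on 85.8% and 83.4%. DRIP peaks were narrower without a neighbour, with a median of 1000 bp against 1500 bp, and their median percentile was 73.5 (67.3 to 79.3) against 84.1 (78.6 to 88.1), intervals that overlap in part.

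The 402 were spread over the chromosomes much as RNAPII peaks were. Chromosome 11 held 44 and chromosome 7 held 39, which is 7.89% of the 494 RNAPII peaks under 5000 bp on chromosome 7 (5.83 to 10.6). Of 20 chromosomes it alone had an interval that did not include the 5.5% of the whole list. Chromosome 12 had the lowest share, 3.75%, from 10 peaks. Among peaks with NELF-A and DRIP, the share without NELF-B ran from 30% on chromosome 19 to 50.9% (28 of 55) on chromosome 17.

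Single regions show what the class contains. The best sum of ranks over the 3 scores belonged to chr8:87549001-87551750, with 823 for RNAPII, 66 for NELF-A and 670 for DRIP, whose peak spanned 5000 bp. Its NELF-A and DRIP peaks lay on the same side of the RNAPII centre, and the nearest NELF-B peak was 43750 bp away. The highest RNAPII score, 2231, was on chr11:69230751-69234250, with NELF-A 57 and DRIP 230 on opposite sides of the centre and NELF-B 5750 bp away. On chr15:57524501-57529000, one of the 3 widest at 4500 bp, RNAPII scored 2066, NELF-A 86 and DRIP 166, both near the middle with centres 250 bp apart. The nearest NELF-B peak there was 379000 bp away. All 3 are broad RNAPII peaks with NELF-A in the upper part of the range of the 402.

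Others combined the marks differently. On chr8:74658501-74662500, with RNAPII at 1443 and no RNAPII peak within 10 kb, the DRIP peak of score 430 had the same ends of the RNAPII peak, and NELF-A of score 43 stood at its lower end. The peak chr6:134869751-134873500 (RNAPII 1274) had its highest-score NELF-A (80) and DRIP (186) peaks at opposite ends, 2625 bp apart by centre. Counting all peaks on it, NELF-A and DRIP did overlap there. On chr7:54100751-54105250 (RNAPII 1887) NELF-A of score 59 and DRIP of score 62 lay 125 bp apart by centre at the lower end. DRIP there was narrow, at 750 bp on a 4500 bp RNAPII peak. On chr6:92890251-92894500 (RNAPII 1479, no RNAPII peak within 10 kb) NELF-A of score 21 and DRIP of score 59 abutted without overlap, with NELF-B 848000 bp away.

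The highest NELF-A score, 163, came from 1 peak at chr15:96115251-96119250 that spanned 2 touching RNAPII peaks of the 402, chr15:96115001-96117750 and chr15:96117751-96118500. The nearest NELF-B peak was 173000 bp from the first and 172250 bp from the second. Next came chr19:46577251-46578750 with NELF-A 125 and DRIP 562, NELF-B 68750 bp away. Then came chr12:110032001-110033750 with NELF-A 122 and NELF-B only 250 bp away, and chr16:94790501-94793500 with NELF-A 113 and NELF-B 41500 bp away. High NELF-A scores without a NELF-B call were thus found both beside NELF-B and far from it. These are total scores, which follow peak width, and none of the 402 had NELF-A in the top 1% per base.

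The highest DRIP score, 4863, lay over 6000 bp on chr11:83084501-83086000, with RNAPII at 645 and NELF-A at 22. The X chromosome held the next, 3875 over 12750 bp on chrX:166434501-166436250 and 3030 over 8000 bp on chrX:166427751-166428750, where the 2 DRIP peaks touch. Next were chr11:69813751-69814500, with DRIP 1666 over 8500 bp and RNAPII only 178, and chr10:80599001-80599500, with DRIP 1364 over 9000 bp, NELF-A 89 and RNAPII 112. On all 5, the DRIP peak was far wider than the RNAPII peak.

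Few of the 402 lay at the edge of the NELF rules, and more at that of DRIP. On the edge of overlap, 6 of the 402 had only 250 bp of NELF-A on the RNAPII peak and 72 only 250 bp of DRIP, 250 bp being the grid of the lists. A NELF-B peak touched the RNAPII peak without overlap on 3, chr2:26301001-26302250, chr7:134489251-134490250 and chrX:166427751-166428750. It was 250 bp away on 5, and within 1 kb on 16 in all (3.98%). Just outside, 12 peaks with all 3 targets had only 250 bp of NELF-B. The widest of the 402 were 4000 bp (6 peaks), 4250 bp (4) and 4500 bp (3). Beyond the width limit 43 RNAPII peaks had the same targets, the narrowest of 5000 bp at chr5:135418251-135423250 (score 1896) and chr7:133764501-133769500 (score 1364), the widest of 51750 bp.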

How the data were processed

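The submitters' processing notes name BWA as a tool and mm9 as the genome build. Not given in the sources used here are the peak caller, its threshold, any input control and how the 2 RNAPII and 2 DRIP libraries were combined. The deposited lists give position and 1 whole-number score per peak, the authors' own value, used to rank peaks within a list and never compared between lists. The lists' 2 constant columns were not used. Positions are 1-based on a 250 bp grid.

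Overlaps of at least 1 bp, distances and percentiles were computed with Python 3.11.15, pandas 2.3.3 and SciPy 1.17.1. The functions were tested on simulated data. Where several NELF-A or DRIP peaks lay on an RNAPII peak, the highest-score one gave the score, percentile, width, centre and side. Overlap of NELF-A with DRIP, shared bases, cover and end crossing used all of them. Shares carry Wilson intervals, differences Newcombe intervals and medians exact order-statistic intervals, all 95%, for counting error only; depth is unknown.

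The members and regions were chosen with earlier results of these data known. Regions named are the 10 with the best sum of score ranks, the top 5 by each score, the 3 widest, the 3 closest to NELF-B and the 3 of highest RNAPII score with no RNAPII peak within 10 kb; some others are named as examples of a limit or extreme. Of these the text gives a selection. Gene starts and base composition were planned and not run: the gene table used is GRCm38, the peaks are mm9, and coordinates were not converted.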

Additional observations from a re-analysis of the deposited data

How the results depend on the processing

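The alternatives changed how many RNAPII peaks met the rule and how the marks lay on them. With overlap of at least 50% of the shorter peak, 343 peaks met it, 342 of them among the 402. Without NELF-B within 1000 bp there were 386, without the width limit 445, with touching peaks joined 391, with the upper 50% of NELF-A and DRIP peaks 211, with NELF and DRIP peaks set to 500 bp 304, and without the X chromosome 394. Requiring the upper 50% moved the share without NELF-B to 28.3% and NELF-A and DRIP overlap to 91.0%. The NELF-A percentile became 75.5 and the DRIP percentile 85.3, largely by construction. Ranks were kept from the full lists, whose lower-score peaks were left out. Removing the width limit moved the share without NELF-B to 33.6%. Setting peaks to 500 bp moved the overlap to 46.1%, the centre distance to 625 bp, the share with an RNAPII neighbour within 10 kb to 35.9% and the DRIP percentile to 67.3. The 50% overlap rule moved the centre distance to 625 bp and the DRIP percentile to 73.0. Requiring no NELF-B within 1000 bp moved the share with NELF-B within 10 kb to 9.33%, by construction. The difference in NELF-A and DRIP overlap between the 402 and the peaks with all 3 targets changed sign at 500 bp (5.01 points, -1.88 to 11.9) and with the upper 50% (0.883 points, -4.26 to 5.12); the cause was not tested. Joining touching peaks, leaving out the X chromosome and, both chosen after seeing the data, leaving out regions of extra-high signal (402 peaks) and members that touch another RNAPII peak (375) moved none of the 10 results beyond its interval. None of the 402 lay in the regions of extra-high signal. Leaving these out could thus change only the share without NELF-B among the 10 results, to 38.6%. No paired analysis was possible because each target has 1 list, and no replicate could be left out. Gene starts and base composition were not run. The unknown depth limits the reading of every missing NELF-B peak.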

Other observations

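Of the 402 peaks, 3 had a DRIP peak in the top 1% of the DRIP list by score per base, and none had RNAPII or NELF-A in the top 1% of those lists. The 3 were chr11:83084501-83086000, with 202.6 per 250 bp, and the 2 neighbours on the X chromosome, chrX:166427751-166428750 and chrX:166434501-166436250, with 94.7 and 76.0. The NELF-A score was 22 on the first and 51 and 25 on the pair.

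At the other end of the scale, 16 of the 402 had NELF-A at 9, the lowest score in its list. From the lowest to the highest NELF-A quartile, the median DRIP percentile of the 402 was 79.3, 81.9, 71.5 and 80.2. RNAPII score per 250 bp was 63.4, 68.9, 67.8 and 75.2 in the same order. The median distance to NELF-B was 95375, 66250, 97500 and 86250 bp, with NELF-B within 1 kb of 1, 3, 5 and 7 peaks.

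A few of the marks reached a NELF-B peak outside the RNAPII peak. The NELF-A peak did so on 8 of the 402 (1.99%), against 1.52% of NELF-A-only peaks. The DRIP peak did so on 10 (2.49%), against 6.33% of DRIP-only peaks.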
